A study of Mus musculus with 22 samples.

Results

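Runx2 and Sp7 encode the pair of transcription factors without which osteoblasts do not form. Every region of the 22 deposited ChIP-seq lists was taken whose centre lay between 200 kb upstream of the start and 100 kb downstream of the end of Runx2, or within 100 kb of Sp7, on genome build mm9. In all, 369 of 360258 regions met this rule, 231 of them at Runx2 and 138 at Sp7. The Runx2 regions comprised 96 transcription factor sites and 135 histone mark regions. The Sp7 regions comprised 48 factor sites and 90 mark regions. These counts run over all lists, so the same place can count once for each factor, state and treatment.

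The cells were MC3T3-E1, a mouse calvarial pre-osteoblast line that deposits mineral under osteogenic culture. Undifferentiated cells, and cells kept for 15 days in glycerol-2-phosphate and ascorbic acid, received ethanol vehicle or 100 nM 1,25(OH)2D3 (calcitriol, the vitamin D hormone) for 3 h. VDR and RXR have a vehicle and a calcitriol list in each state. C/EBPβ, RUNX2, H4K5ac, H3K9ac, H3K4me1, H3K4me3 and H3K36me3 have a calcitriol list in each state, and their vehicle lists were not analysed here. Every group was 1 list, so differences between groups carry no replicate check and no test. Differentiated cultures were also homogenized and spun through sucrose to remove matrix, so preparation and state cannot be told apart. The lists hold no read counts, and a site that was not called is not shown to be unbound. The factor lists ran from 274 to 17950 sites. Of 10 osteoblast marker genes, 7 had H3K9ac at a start in both states (not Bglap, Ibsp or Phex). In each of the adipocyte, muscle and blood marker lists 0 of 5 genes had it, and 2 of 5 chondrocyte genes did (Sox9 and Col2a1). H3K4me3 was at a start of 5 of the 10 osteoblast genes in undifferentiated and 6 in differentiated cells. For the adipocyte, muscle and blood lists it was at 0 of 5, and for the chondrocyte list at 2 and 1 of 5.

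As background, VDR binds DNA as a dimer with RXR once calcitriol occupies its pocket, typically at a direct repeat of hexamers with a spacer of 3 bases (DR3). RUNX2 is the runt-domain factor that commits mesenchymal cells to the osteoblast lineage and also acts on its own gene. It is made from a distal and a proximal promoter, which give proteins with different amino termini. Sp7 (osterix), a zinc-finger factor, acts after RUNX2 in the same lineage, and C/EBPβ is a leucine-zipper factor that cooperates with RUNX2 at bone genes. H3K4me3 and H3K9ac mark active starts, H3K4me1 and H4K5ac spread over enhancers and open chromatin, and H3K36me3 follows transcribed gene bodies.

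Runx2 lies on the minus strand of chromosome 17. GENCODE vM1 holds 2 overlapping entries of this name, merged here to chr17:44632936-44951746, a span of 319 kb with 18 transcripts. Distances here run from its distal start in the direction of transcription. The proximal starts lie 78.1 to 79.2 kb downstream, and the consensus coding isoforms end at 211 kb. The rest of the gene, to 319 kb, is covered by a long 3′ gene model. Supt3h, which encodes a subunit of the SAGA coactivator complex, starts in the first Runx2 intron at 37.4 to 37.6 kb and runs the other way, across the distal promoter and far upstream. Sp7 lies on the minus strand of chromosome 15 at chr15:102187040-102197285 and spans 10.2 kb, with starts 0.529 kb apart. Its window of 210 kb is crowded with the genes Rarg, Mfsd5, Espl1, Pfdn5, Myg1, Aaas, Gm17671, Sp1, Amhr2 and Prr13.

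The sequences that follow are the VDR sites at Runx2 with a DR3 match, shown because they are the places in that window where the receptor's own element was found. Each is read from the plus strand of mm9, which is opposite to Runx2, with the DR3 match in capitals. Both matches carry 1 mismatch to the consensus. The first site is chr17:44729443-44729643, 222.2 kb from the distal start, and the second is chr17:44659727-44659927, at 291.9 kb. Both lie in introns of the long 3′ gene model.
VDR site at 222.2 kb: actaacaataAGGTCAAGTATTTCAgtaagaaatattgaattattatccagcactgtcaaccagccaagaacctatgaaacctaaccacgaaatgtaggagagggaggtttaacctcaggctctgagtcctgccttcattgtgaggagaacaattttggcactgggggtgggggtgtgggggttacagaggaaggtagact
VDR site at 291.9 kb: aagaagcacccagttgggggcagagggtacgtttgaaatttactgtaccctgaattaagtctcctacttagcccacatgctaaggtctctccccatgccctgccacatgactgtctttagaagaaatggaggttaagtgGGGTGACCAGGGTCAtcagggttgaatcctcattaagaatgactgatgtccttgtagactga

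The Runx2 promoters are shown next because RUNX2 itself was called there in both states. Capitals mark exact matches to the RUNX motif, searched on both strands as TGNGGTN with C or T in place of each N, or in the last line to the C/EBP motif, searched as TTGCNNAA and TTACNNAA. The distal site chr17:44951458-44951658 holds 3 RUNX matches. The pair that stands side by side is given with its surroundings at chr17:44951531-44951576, which is coding in some transcripts and precedes the start of others, and the remaining match at chr17:44951640-44951669. The site at chr17:44950569-44950769, 1.1 kb into the gene, was called in differentiated cells only. The proximal sites of RUNX2 (chr17:44874156-44874356) and C/EBPβ (chr17:44874463-44874663) lie in a Runx2 intron, upstream of the proximal starts, and overlap an exon of the antisense transcript Gm10497.
Distal promoter, RUNX2, paired matches: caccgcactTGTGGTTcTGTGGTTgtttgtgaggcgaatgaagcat
Distal promoter, RUNX2, remaining match: agacagaatcaTGTGGTTtgtgacctcaca
Distal promoter, RUNX2, differentiated only: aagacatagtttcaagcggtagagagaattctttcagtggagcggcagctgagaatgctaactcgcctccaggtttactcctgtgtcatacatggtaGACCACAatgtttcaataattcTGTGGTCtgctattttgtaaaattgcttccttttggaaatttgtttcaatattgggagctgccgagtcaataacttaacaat
Proximal promoter, RUNX2: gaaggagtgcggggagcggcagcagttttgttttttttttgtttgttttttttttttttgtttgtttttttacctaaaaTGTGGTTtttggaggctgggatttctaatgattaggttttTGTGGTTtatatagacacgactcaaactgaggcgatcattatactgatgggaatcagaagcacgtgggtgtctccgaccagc
Proximal promoter, C/EBPβ: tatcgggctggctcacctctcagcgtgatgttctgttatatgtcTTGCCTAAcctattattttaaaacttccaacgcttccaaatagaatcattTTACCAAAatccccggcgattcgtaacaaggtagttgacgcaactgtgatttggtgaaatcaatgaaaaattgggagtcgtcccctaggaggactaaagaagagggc

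At Sp7 the RUNX2 sites in the gene and just upstream of it that were called in both states and held a RUNX match are shown, with the match in capitals, together with the VDR site at the start of Aaas, the place in that window where all 4 factors were called. The intronic site is chr15:102193194-102193394, 4.0 kb into Sp7, and the upstream site is chr15:102208466-102208666, 11.3 kb before its start. The RUNX2 site between them, 10.3 kb before the start, held no match and is not printed. For the Aaas site (chr15:102181130-102181330) the stretch before the annotated exon, chr15:102181191-102181330, is given, and the site held no DR3, RUNX or C/EBP match.
Sp7 intron, RUNX2: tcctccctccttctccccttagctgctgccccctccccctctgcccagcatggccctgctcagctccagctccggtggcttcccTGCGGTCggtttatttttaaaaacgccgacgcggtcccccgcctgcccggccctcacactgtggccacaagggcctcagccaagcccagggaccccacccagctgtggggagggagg
Sp7 upstream, RUNX2: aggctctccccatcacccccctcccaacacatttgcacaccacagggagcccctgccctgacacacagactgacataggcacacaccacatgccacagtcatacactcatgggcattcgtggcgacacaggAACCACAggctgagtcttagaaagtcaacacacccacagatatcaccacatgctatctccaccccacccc
Aaas start, VDR: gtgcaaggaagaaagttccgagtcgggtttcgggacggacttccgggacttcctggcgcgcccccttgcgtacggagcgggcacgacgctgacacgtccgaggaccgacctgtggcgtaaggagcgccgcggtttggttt

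At Runx2, VDR was called at 5 sites in undifferentiated cells with calcitriol, and at 0 sites in each of the other 3 VDR lists. None of the 5 was at a promoter. They lay at 104.7, 214.7, 222.2, 291.9 and 383.1 kb, that is, from an intron after the proximal promoter to intergenic sequence beyond the 3′ end. Across all protein-coding genes, 52.2% had at least 1 VDR site in a window built the same way in undifferentiated cells with calcitriol, and 17.1% in differentiated cells. Having a site was therefore common. Genes with 5 or more made up 7.00%, and since the Runx2 window is long, genes as dense in VDR sites made up 17.0%.

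The 5 Runx2 sites appeared with hormone and were not called again after differentiation. Under vehicle 0 of 5 had been called, where the whole undifferentiated list had 11.2% of its calcitriol sites. In differentiated cells with calcitriol 0 of 5 were called, against 11.3% over the whole list. Most VDR sites of undifferentiated cells were thus not called again anywhere in the genome, and the Runx2 sites were like them. Whether binding was lost was not tested.

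Of the 5 VDR sites at Runx2, 4 coincided with another factor in undifferentiated cells with calcitriol. The site at 104.7 kb (chr17:44846898-44847098) coincided with RXR and C/EBPβ, and the latter was called there in both states. At 214.7 kb (chr17:44736943-44737143) it was joined by RXR and RUNX2. The site at 222.2 kb stood in a cluster 837 bp wide (chr17:44729202-44730038) that held all 4 factors in undifferentiated cells with calcitriol and drew sites from 8 of the 12 factor lists. The cluster chains neighbouring sites, and the VDR site itself overlapped RXR and RUNX2 but not the C/EBPβ site of that state. At 291.9 kb VDR was called alone. At 383.1 kb (chr17:44568594-44568794) it coincided with C/EBPβ in undifferentiated cells, and RXR and RUNX2 were called there after differentiation, when VDR was not. By overlap of the sites themselves, 3 of 5 VDR sites had RXR (60.0% over the whole list), 2 of 5 had C/EBPβ (44.1%) and 2 of 5 had RUNX2 (54.0%).

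**Figure D1:**
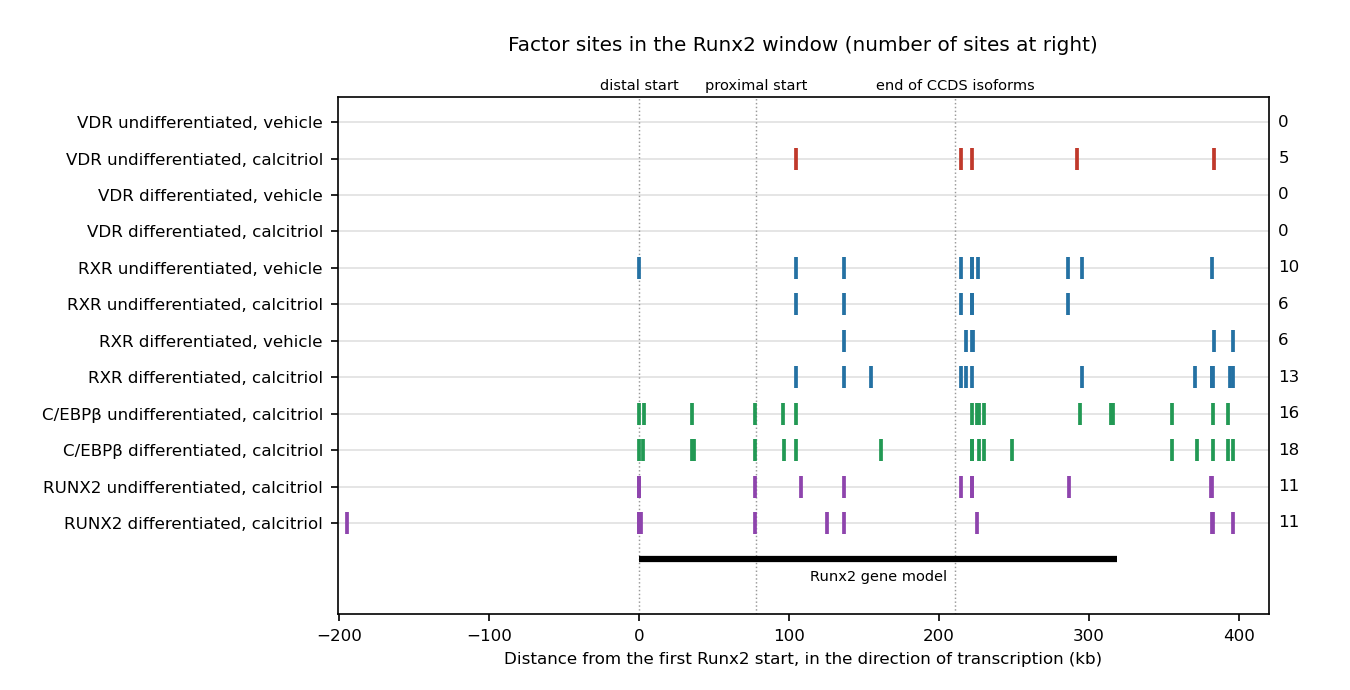
Transcription factor sites in the Runx2 window. Each tick is 1 called site, placed by distance in kb from the distal start (horizontal axis), with 1 row per list and the number of sites at the right; dotted lines mark the distal start, the proximal start and the end of the consensus coding isoforms. VDR was called at 5 sites in 1 of its 4 lists, and the 6 RXR sites beyond the gene in differentiated cells with calcitriol lie between 370.5 and 395.9 kb.

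RXR sites at Runx2 moved in opposite directions with calcitriol in the 2 states. Undifferentiated cells had 10 sites under vehicle and 6 with calcitriol, and differentiated cells had 6 and 13. The whole lists went from 7834 to 7591 sites and from 4815 to 8126. In the same order, 54.5%, 54.2%, 43.5% and 54.4% of all genes had at least 1 RXR site in a window built the same way. Genes with as many as Runx2 made up 1.55%, 7.07%, 2.67% and 0.616%, and genes as dense 7.79%, 17.0%, 9.43% and 3.82%. Of the 10 vehicle sites in undifferentiated cells, 6 were called again with calcitriol (67.3% over the list). All 6 undifferentiated calcitriol sites had also been called under vehicle (69.3% over the list), while 5 of the 13 differentiated ones had (52.6% over the list). The site at 136.9 kb was in all 4 RXR lists and in both RUNX2 lists. The distal promoter carried an RXR site under vehicle in undifferentiated cells (chr17:44951448-44951648), and in no other RXR list.

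The RXR sites of differentiated cells reached beyond the gene. With calcitriol 6 of the 13 lay downstream of the 3′ end, at 370.5, 381.7, 382.0, 383.0, 394.1 and 395.9 kb. Under vehicle 2 were there, and in undifferentiated cells 1 under vehicle and 0 with calcitriol. Of the 6 RXR sites in undifferentiated cells with calcitriol, 4 were called again after differentiation (61.6% over the list). Of the 13 in differentiated cells with calcitriol, 4 were also called in undifferentiated cells with calcitriol (57.7% over the list). H3K9ac over this downstream stretch covered 6.95 kb before and 25.9 kb after differentiation, and all 13 RXR sites lay in H3K9ac (77.8% over the list).

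C/EBPβ had the most sites of the 4 factors at Runx2, 16 in undifferentiated and 18 in differentiated cells, and 12 of the 16 were called again (64.7% over the list). It occupied both promoters in both states. At the distal promoter its site lay on the start (chr17:44951640-44951840), and at the proximal promoter 0.962 kb before the nearest start. It was also called in both states 3.0 kb into the first intron and at 35.4 kb, near the Supt3h start, where differentiated cells had another site at 36.5 kb. A further group of sites, at 222.1, 226.7 and 229.8 kb, was called in both states past the end of the coding isoforms. Among all genes 74.8% had a C/EBPβ site in such a window in undifferentiated and 71.1% in differentiated cells. Genes with as many as Runx2 made up 1.15% and 0.517%, and genes as dense 8.26% and 4.30%.

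In the window of its own gene RUNX2 was called at 11 sites in each state. Downstream of the gene lay 2 of them in undifferentiated and 3 in differentiated cells, and 1 of differentiated cells lay far upstream. The start nearest to the downstream sites was that of Clic5, outside the window. Of the undifferentiated sites 5 were called again after differentiation (43.1% over the list), and 4 of these 5 lay at the promoters or at 136.9 kb. The distal start was flanked by RUNX2 sites in both states, at 0.2 kb on either side in undifferentiated cells (chr17:44951884-44952084 upstream and the printed site downstream). Differentiated cells added the site 1.1 kb into the gene. The proximal promoter had 1 site in each state, 0.705 kb before the nearest start. The fifth shared site was at 382.1 kb, beyond the gene, where RXR was also called. Of all genes 69.1% had a RUNX2 site in such a window in undifferentiated and 57.2% in differentiated cells. Genes with as many as Runx2 made up 2.71% and 0.629%, and genes as dense 13.5% and 4.95%.

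The sites that differed between states lay in introns and outside the gene. RUNX2 was called at 108.1, 214.8, 221.8, 222.3, 286.8 and 381.7 kb in undifferentiated cells only. Of the 11 differentiated sites, 5 were also called in undifferentiated cells (65.5% over the differentiated list). RUNX2 was called in differentiated cells only at 1.1, 125.2, 225.6, 383.0 and 395.8 kb and at 194.5 kb upstream, inside a Supt3h intron. That site was the single factor site upstream of the distal promoter region in any of the 12 factor lists (chr17:45146121-45146321).

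When overlapping sites of all lists were merged, Runx2 held 38 separate places, of which 16 were in 1 list only. With calcitriol 25 places were occupied in undifferentiated cells and 31 in differentiated cells, 18 of them in both. Most had a single factor: 19 of 25 and 24 of 31. At least 3 factors met at 3 places in undifferentiated cells, including the cluster of all 4 at 222.1 kb. In differentiated cells they met at 2 places, at 383.0 and 395.9 kb, where RXR, C/EBPβ and RUNX2 were called together. Merged places were not counted over the whole lists, so none of these counts is shown to be particular to Runx2.

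In the Sp7 window VDR was called at the starts of 2 neighbouring genes and not at Sp7. One site was at Aaas, which encodes a nuclear pore protein, 16.1 kb from the Sp7 start and beyond its 3′ end. The other was at Pfdn5, which encodes a prefoldin chaperone subunit, at 40.7 kb (chr15:102156490-102156690). Both sites of undifferentiated cells with calcitriol had been called under vehicle (11.2% over that list). The Pfdn5 site was in all 4 VDR lists, the single differentiated calcitriol site among them, which was also in the vehicle list (29.2% over that list). It had no site of another factor. The Aaas site was not called in differentiated cells, and drew sites from 9 of the 12 factor lists. Of all genes 43.3% had a VDR site within 100 kb in undifferentiated cells with calcitriol and 13.0% in differentiated cells.

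Sp7 itself was flanked by RUNX2 and RXR. RUNX2 had 7 sites in the window in each state, and 5 of the 7 undifferentiated sites were called again (43.1% over the list). The 5 lay at 39.1 kb upstream, at the Sp1 start, at 11.3 and 10.3 kb upstream, at 4.0 kb in an Sp7 intron, and at the Aaas start. RXR accompanied the pair upstream: at 10.3 kb in all 4 RXR lists, and at 11.1 kb in 3 of them, all but differentiated cells with calcitriol. At the intronic site RXR was called in both undifferentiated lists and in neither differentiated one. C/EBPβ joined the site at 11.1 kb in differentiated cells.

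No factor site of any list lay within 1 kb of an Sp7 start, although both starts carried H3K4me3 and H3K9ac in both states. At Runx2 each promoter had RUNX2 and C/EBPβ sites in both states. The region 34.1 kb upstream of Sp7 gained company: C/EBPβ was called there in both states, and RXR (in both treatments) and RUNX2 in differentiated cells only. The remaining RUNX2 sites of undifferentiated cells lay at 107.8 and 109.5 kb, near Rarg, which encodes a retinoic acid receptor. The remaining one of differentiated cells lay at 11.2 kb, where RXR had been called in undifferentiated cells.

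RXR in the Sp7 window had 7 and 5 sites in undifferentiated cells (vehicle and calcitriol) and 5 and 4 in differentiated cells. In the same order, 46.7%, 46.0%, 35.7% and 46.1% of all genes had an RXR site within 100 kb. Genes with as many as Sp7 made up 2.61%, 5.94%, 2.44% and 9.75%. Of the 5 calcitriol sites in undifferentiated cells 5 had been called under vehicle (69.3% over the list) and 2 were called after differentiation (61.6%). C/EBPβ had 4 sites and 3 sites, 2 of the 4 being called again (64.7% over the list), at 34.1 kb upstream and at the Prr13 start. Among all genes 68.0% had a C/EBPβ site and 62.0% a RUNX2 site within 100 kb in undifferentiated cells. In differentiated cells the shares were 63.4% and 48.9%. Genes with as many C/EBPβ sites as Sp7 made up 25.4% in undifferentiated and 31.0% in differentiated cells. For RUNX2 they made up 5.59% and 1.86%.

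**Figure D2:**
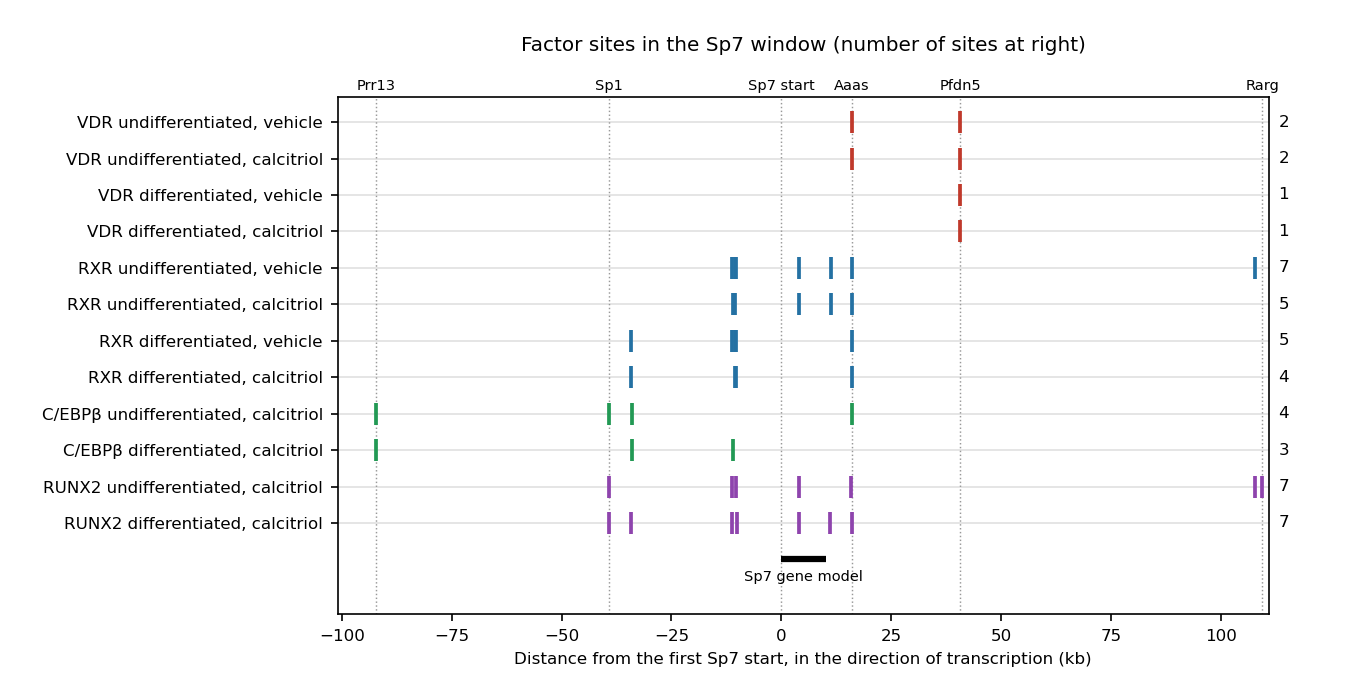
Transcription factor sites in the Sp7 window. Each tick is 1 called site by distance in kb from the Sp7 start (horizontal axis), with 1 row per list, the number of sites at the right and dotted lines at the starts of Sp7 and named neighbours. RUNX2 and RXR ticks line up at 11.1 and 10.3 kb upstream, VDR ticks stand at Aaas and Pfdn5, and no tick lies within 1 kb of an Sp7 start.

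Per length, both windows were richer in factor sites than the genome in every list that had a site there. Against windows of other genes they stood out less in some lists. Genes as dense made up from 0.957% (RUNX2 at Sp7) to 22.7% (C/EBPβ at Sp7), both in differentiated cells. At Runx2 the VDR list of differentiated cells with calcitriol had 0 sites per Mb (0.330 over the genome). Among its other calcitriol lists the lowest density was 8.08 VDR sites per Mb in undifferentiated cells (2.65 over the genome). The highest was 29.1 C/EBPβ sites per Mb in differentiated cells (6.27). Genes as dense made up 17.0% for the lowest and 4.30% for the highest. The largest ratio at Runx2 was that of RXR in differentiated cells with calcitriol, 6.82 times the genome, with 3.82% of genes as dense. At Sp7 RUNX2 reached 33.3 sites per Mb in both states, 7.31 times the genome in undifferentiated and 11.1 times in differentiated cells. The ratio differed because the whole RUNX2 list shortened from 12012 to 7919 sites while the count at Sp7 stayed at 7. Genes as dense in RUNX2 sites as Sp7 made up 3.46% of all genes in undifferentiated and 0.957% in differentiated cells, and those as dense as Runx2 13.5% and 4.95%. Other lists at Sp7 had ratios as high or higher on fewer sites: VDR under vehicle reached 26.8 times the genome with 2 sites in undifferentiated cells and 45.8 times with 1 in differentiated cells, VDR with calcitriol in differentiated cells 14.4 times with 1, and RXR under vehicle in differentiated cells 13.0 times with 5. In the same order, genes as dense in these lists made up 2.71%, 3.21%, 5.92% and 1.45%. Many genes are crowded by neighbours, so a window's density belongs to the window and not to the gene it is named for.

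**Figure D3:**
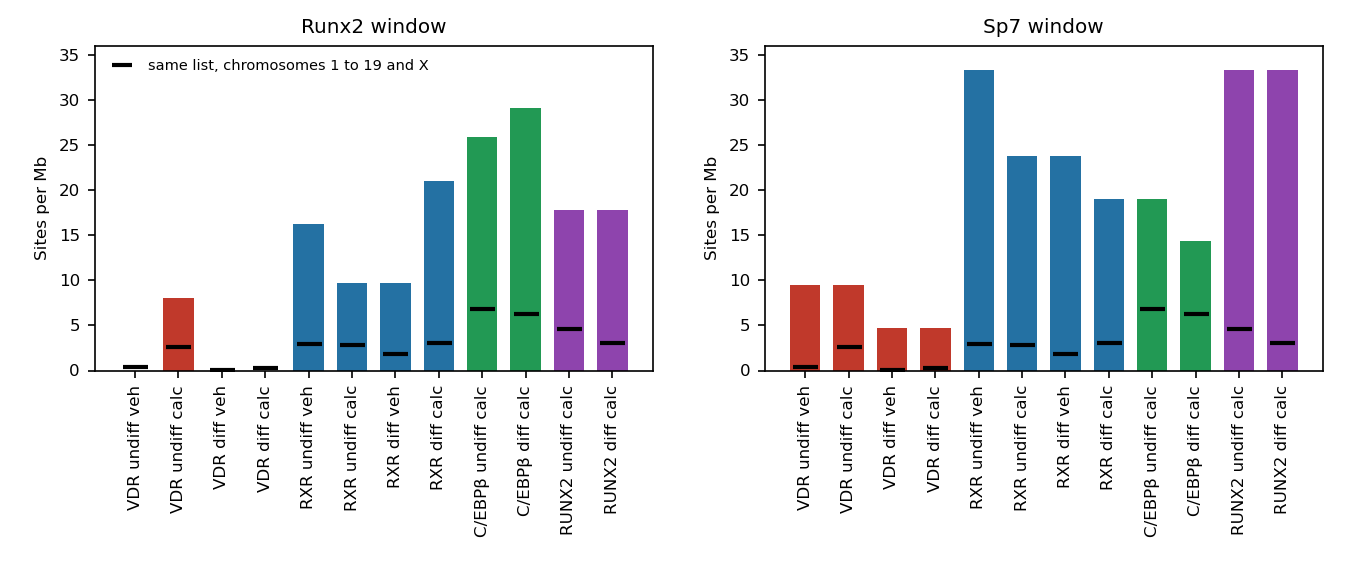
Sites per Mb in the Runx2 and Sp7 windows (bars, vertical axis starting at 0) for each of the 12 factor lists, labelled by factor, state (undiff, diff) and treatment (veh for vehicle, calc for calcitriol). Black dashes give the density of the same list over chromosomes 1 to 19 and X; all bars above 0 stand higher than their dash.

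Among the histone marks, H3K36me3 covered 100% of Runx2 between its promoters in both states. It also covered 100% from the proximal promoter to the end of the coding isoforms. A single H3K36me3 region ran from just after the distal start over 221 kb in undifferentiated cells, the region with the highest score of all 17490 in that list. In differentiated cells it measured 237 kb and ranked 153 of 16186. The sources used here leave unsaid what the deposited score measures, so ranks are read within a list only. H4K5ac covered 79.1% of the window in undifferentiated and 72.9% in differentiated cells, against 12.9% and 10.7% of the genome. Since it covered 100% of both promoters and of the introns after the proximal promoter, the change lay outside them.

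H3K4me3 narrowed around both Runx2 promoters. The region on the distal start was 24.2 kb wide in undifferentiated and 8.04 kb in differentiated cells, and that on the proximal start 14.3 and 7.09 kb. A region at 308 to 317 kb, in the 3′ part of the long gene model, was called in undifferentiated cells only. Differentiated cells had a small region near the Supt3h start instead. The cover of the Runx2 window was 0.360 times as long in differentiated cells. Narrowing was general, since the cover of the genome was 0.433 times as long and the median region went from 5.26 to 2.23 kb. Within its list, the distal region moved from rank 958 of 6983 by score to rank 62 of 8994.

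H3K9ac stayed on the promoters and spread elsewhere. The region on the distal start was 19.2 kb wide in undifferentiated and 19.6 kb in differentiated cells, and ranked 10 in both lists. The proximal region was 13.0 and 14.0 kb wide, at ranks 25 and 23. Over the window H3K9ac covered 70.3 kb before and 113 kb after differentiation, 1.61 times as much, where the genome gave 1.32 times. The increase was steepest downstream of the gene, 3.72 times, and 1.92 times in the 3′ part of the long gene model, against 1.16 times between the promoters.

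H3K4me1 covered 57.0% of the Runx2 window in undifferentiated and 66.2% in differentiated cells, while its cover of the genome hardly differed (0.990 times). In the introns after the proximal promoter it went from 84.1% to 99.9%. Around the distal start it withdrew, from 100% to 47.2% of the stretch within 1 kb of a start, as the region of 65.0 kb across the start gave way to one of 8.74 kb ending at it and another beginning after it. The first of the proximal starts lay near the edge of an H3K4me1 region in both states.

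**Figure D4:**
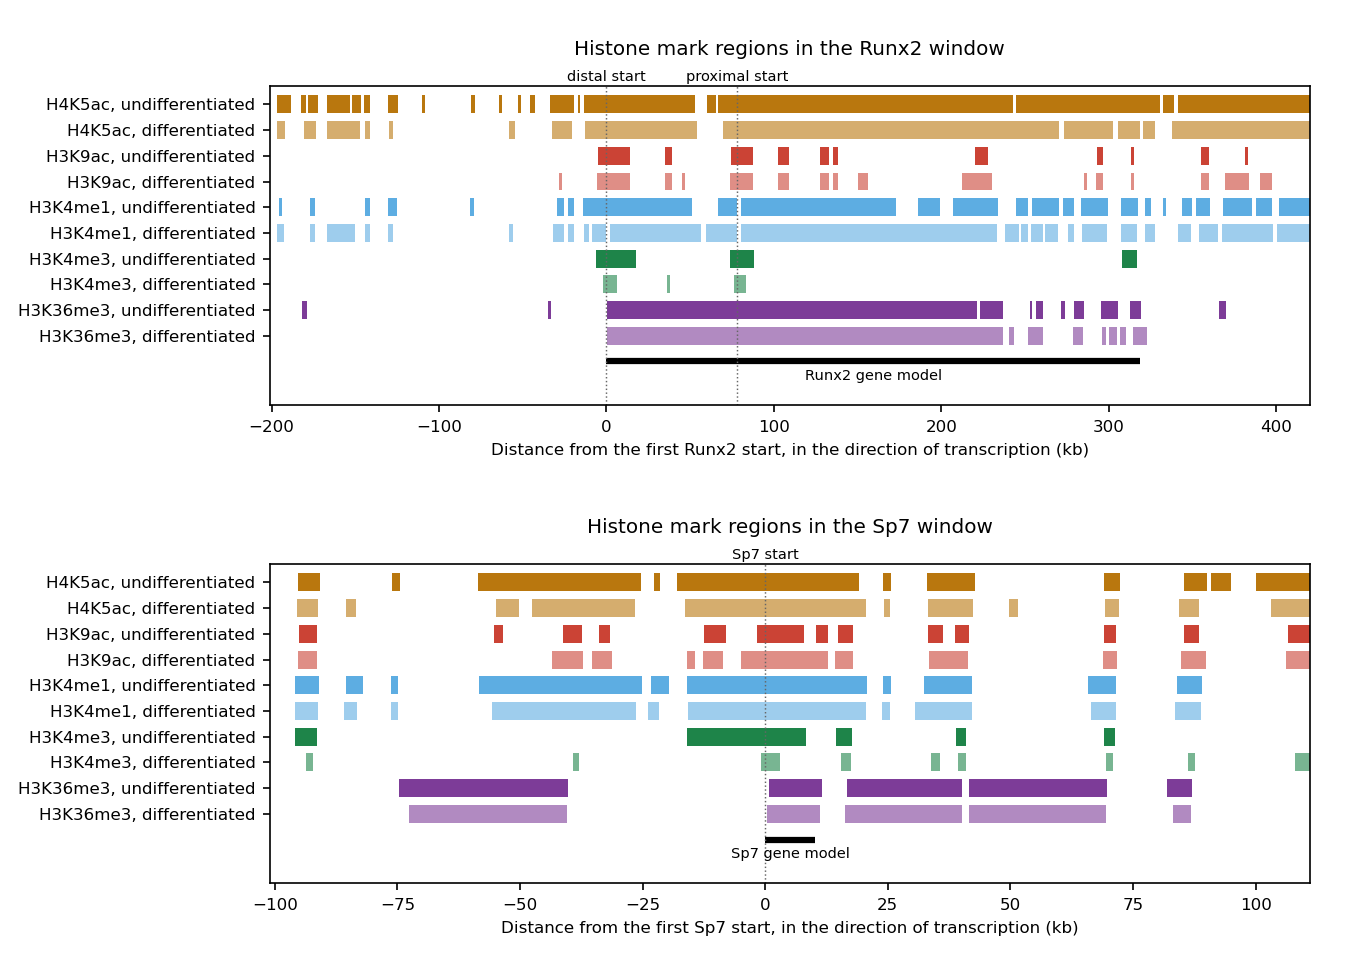
Histone mark regions in the Runx2 window (upper panel) and the Sp7 window (lower panel). Bars are called regions by distance in kb from the first start of the gene (horizontal axis), in full colour for undifferentiated and pale for differentiated cells, all with calcitriol. The H3K4me3 bars over the starts shorten from 24.2 to 8.04 kb at the distal Runx2 start and from 24.2 to 3.88 kb at Sp7, and the H3K36me3 bar over Runx2 spans more than the coding isoforms in both states.

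**Figure D5:**
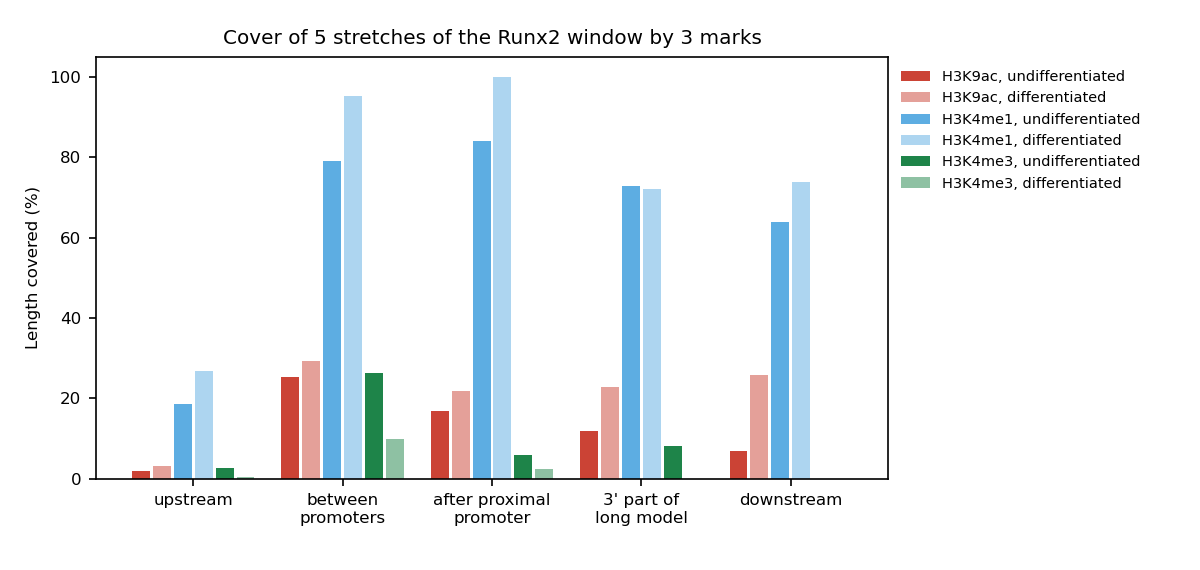
Percentage of length covered (vertical axis, from 0) by H3K9ac, H3K4me1 and H3K4me3 in 5 stretches of the Runx2 window, in undifferentiated (full colour) and differentiated cells (pale). Downstream of the gene H3K9ac goes from 6.95% to 25.9%, after the proximal promoter H3K4me1 goes from 84.1% to 99.9%, and H3K4me3 is lower in differentiated cells in each of the 4 stretches where it was called.

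Sp7 lost most of its H3K4me3 width and gained H3K9ac width. The H3K4me3 region on its start went from 24.2 kb, reaching 15.9 kb upstream over the RUNX2 and RXR sites, to 3.88 kb, reaching 0.75 kb upstream. Upstream of Sp7 the cover fell to 0.142 times its former length, 19.3 to 2.74 kb. Over the whole window it fell to 0.427 times, close to the genome's 0.433. The number of H3K4me3 regions in the window went from 5 to 9, while the whole list went from 6983 to 8994. Genes with as many regions as Sp7 made up 8.60% in undifferentiated and 1.64% in differentiated cells. The H3K9ac region on the start widened from 9.64 to 17.8 kb, while its rank by score went from 321 of 17189 to 1555 of 22868. H3K9ac cover of the window rose 1.32 times, as over the genome. H4K5ac (37.2 and 36.8 kb), H3K4me1 (36.9 and 36.2 kb) and H3K36me3 (10.9 and 10.7 kb) on Sp7 had nearly the same width in both states.

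Nearly all factor sites of both loci lay in H4K5ac and H3K4me1 of their own state, as they did over the whole lists. The exceptions with calcitriol lay at the distal Runx2 promoter in differentiated cells. There H3K4me1 held 9 of 11 RUNX2 sites of the window (98.5% over the list) and 17 of 18 C/EBPβ sites (92.9%). At Runx2 all 5 VDR, 6 RXR, 16 C/EBPβ and 11 RUNX2 sites of undifferentiated cells with calcitriol lay in H4K5ac (97.5%, 98.7%, 89.0% and 97.4% over the lists). In undifferentiated cells with calcitriol, H3K4me3 held 0 of 5 VDR, 0 of 6 RXR and 5 of 16 C/EBPβ sites at Runx2, against 2 of 2, 4 of 5 and 2 of 4 at Sp7 (19.9%, 24.1% and 18.6% over the lists). In differentiated cells it held 0 of 13 RXR and 4 of 18 C/EBPβ sites at Runx2, and 1 of 1 VDR, 1 of 4 RXR and 0 of 3 C/EBPβ sites at Sp7 (34.4% of the VDR list, 16.0% of RXR and 10.3% of C/EBPβ). For RUNX2 the counts were 3 of 11 at Runx2 and 6 of 7 at Sp7 in undifferentiated cells (26.6%), and 4 of 11 and 2 of 7 in differentiated cells (15.1%). At 11.3 and 10.3 kb upstream of Sp7 and in its intron at 4.0 kb, RUNX2 was still called in differentiated cells where H3K4me3 no longer was.

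A DR3 with up to 1 mismatch was in 2 of 5 VDR sites at Runx2 and 0 of 2 at Sp7 (14.8% over the list of undifferentiated cells with calcitriol). With no mismatch allowed, or in the central part of the site alone, 0 of 5 held one. The RUNX motif was in 6 of 11 RUNX2 sites at Runx2 in each state and in 3 of 7 at Sp7 in each state (52.5% of the undifferentiated and 55.9% of the differentiated list). The C/EBP motif was in 7 of 16 and 11 of 18 C/EBPβ sites at Runx2, and in 1 of 4 and 0 of 3 at Sp7 (53.3% and 56.5%). The VDR sites at Runx2 held the C/EBP motif in 3 of 5 cases (19.5%) and the RUNX motif in 0 of 5 (27.1%). A match describes the letters only.

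Other genes of the osteoblast transcription factor network were compared through a list of 31 genes, counting sites within 100 kb of each gene from start to end. In undifferentiated cells with calcitriol 23 of the 31 had a VDR site, or 74.2% against 43.3% of all genes, with a median of 2 sites against 0. In differentiated cells 8 had one, or 25.8% against 13.0% of all genes. Rxra, which encodes the VDR partner RXRα, had 11 VDR sites, Cebpb, which encodes C/EBPβ, had 9, and Fosl2, an AP-1 member, had 7. Vdr, the receptor's own gene, had 5, as did Runx2. After differentiation these counts were 0 for Rxra, 1 for Cebpb, 2 for Fosl2, 1 for Vdr and 0 for Runx2. These genes were named for having the most VDR sites of the list in undifferentiated cells with calcitriol. The whole VDR list with calcitriol also went from 7000 sites in undifferentiated to 871 in differentiated cells, so the lower counts are not particular to them. RUNX2 sites were near 25 of the 31 genes in each state (62.0% of all genes in undifferentiated and 48.9% in differentiated cells). C/EBPβ sites were near 28 and 26 of them (68.0% and 63.4% of all genes). Runx2 had more C/EBPβ sites in differentiated cells than any other gene of the list, 18, with Runx1 next at 15. Windows differ in length, neighbours such as Dlx5 and Dlx6 or Sp7 and Sp1 share sites, and the list was chosen with results known, so these counts are a description.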

How the data were processed

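ChIP-seq region lists of MC3T3-E1 cells were used, 1 for each antibody, state and treatment. The submitters' processing notes name Bowtie, HOMER and build mm9. Versions and thresholds, not given in the sources used here, were not assumed. Replicates were made and examined separately, per the series' design text, and each list was read as their overlap. The score column deposited by the authors was 0 throughout the factor lists, whose sites were all 201 bp wide. In the histone lists it varied, with a meaning that no label or header states, and it served for ranks within a list and for leaving out the lowest 25%. The lists hold no counts, so depth is unknown. The sample labels give H4K5ac where the protocol text, per the labels, names H3K5Ac, and the sample labels were followed.

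Windows were placed on GENCODE vM1 (NCBIM37, which is mm9), and a region belonged by its centre. Overlapping entries of the same gene name were merged, which left 22254 protein-coding genes on chromosomes 1 to 19 and X as background, and 96 regions on other chromosomes were left out. Promoter means within 1 kb of a start, and sites were shared or merged at an overlap of 1 bp. Python 3.11.15, pysam 0.24.0 and samtools 1.23.1 were used, and overlap and motif code was tested on simulated data. No statistical test was made, because each group is 1 list. By rule, all VDR sites under calcitriol, all factor sites within 1 kb of the promoters, and RUNX2 sites called in both states were named. Other sites were named after their values were seen. Promoter sites without a motif match were not printed, and the intronic and upstream Sp7 sequences were added after their values were seen. The genes, windows and gene lists were chosen with earlier results of these data known. Alternatives were other windows, overlap rules, motif rules, gene models and score limits.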

Additional observations from a re-analysis of the deposited data

Results flagged for a closer look

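The number of RXR sites at Runx2 differed between treatments in opposite directions in the 2 states. In undifferentiated cells it was 10 under vehicle and 6 with calcitriol, and in differentiated cells 6 under vehicle and 13 with calcitriol. In the same order, genes with as many RXR sites made up 1.55%, 7.07%, 2.67% and 0.616% of all genes. The difference between the states was not tested, since each count comes from 1 list, and the whole RXR list of differentiated cells also lengthened with calcitriol, from 4815 to 8126 sites. Its part in the result was not tested.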

How the results depend on the processing

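Of 276 values recomputed under other settings, 242 kept within 1.5 times of the value given (for covered percentages and counts alike) and 34 did not. With the window narrowed to 100 kb upstream and 50 kb downstream of Runx2, RXR sites in differentiated cells with calcitriol numbered 7 in place of 13, and RUNX2 sites in differentiated cells 7 in place of 11, because the outer sites fall away. With sites merged only when overlapping over more than 50% of their width, 1 place at Runx2 in place of 2 had at least 3 factors in differentiated cells. With sites merged when their centres lay within 500 bp, 2 places at Sp7 in place of 1 had them. The other changes concerned counts of mark regions and motif matches, 12 with the narrowed window, 5 without the lowest 25% by score, 10 with the other mismatch setting and 3 in the central part of sites. No paired analysis was possible because each group is 1 list and no test was made. Without read counts, a site missing from a list cannot be told from one too shallow to be called.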
